A study of Mus musculus with 2 samples.

Results

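The 10 genes described here are the regulators of cell survival and cell death that centre on the Bcl2 family, out of 21938 protein-coding genes in the mouse annotation (GENCODE M21). They were taken by name. Bcl2, Bcl2l1, Mcl1 and Xiap protect cells from apoptosis, and Bax, Bak1, Bbc3, Bcl2l11, Bid and Pmaip1 promote it. For each gene the intervals of a GABPα binding map that lay within 1000 bp of any annotated transcript start were collected, and where there was none the nearest interval was taken. The map came from ChIP-seq of CD4+ T cells with an anti-GABPα antibody. The cells were purified with magnetic (MACS) beads from C57BL/6 mice of wild-type genotype. The paper uses WT for Gabpa f/f littermate controls, and its ChIP-seq methods do not say whether these mice carried the floxed allele. Input DNA of the same kind of cells, with no antibody, was the control. There was 1 ChIP library and 1 input library, so no value has a replicate, no p-value can be given, and every count describes that ChIP library alone. The number of mice behind the library is not given in the sources used here, and there was no GABPα-deficient chromatin in the series to show signal that does not depend on the protein. The labelled cell type could not be checked, since a peak list gives no expression of marker genes.

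Bcl2 family proteins decide at the outer mitochondrial membrane whether a cell starts apoptosis. Bcl2, Bcl-xL (the product of Bcl2l1) and Mcl1 hold in check the pore formers Bax and Bak, and the BH3-only proteins Bim (Bcl2l11), Puma (Bbc3), Noxa (Pmaip1) and Bid either neutralise the protectors or activate the pore formers. Xiap is not a Bcl2 protein but blocks caspases downstream of the membrane step. In T cells Mcl1 and Bcl2 sustain naive cells under IL-7 signalling, Bcl-xL rises after stimulation, and Bim removes cells at the end of a response. GABPα is an Ets family protein that contacts DNA at a GGAA core, and the motif looked for was CCGGAAG, with CGGAAG and GGAA as looser forms, each on both strands.

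Of the 10 genes, 3 had a peak at a start: Bcl2l1 and Mcl1 among the survival genes and Bid among the death genes. All 3 peaks covered the annotated gene start. The 4 stretches below are DNA of the GRCm38 (mm10) genome, written 5′ to 3′ on the coding strand of each gene. They show peaks with the motif (Mcl1 and the Bcl2 intron), the Bid peak without it, and a motif with no peak (Bcl2l11). Each stretch is free of GENCODE M21 exons. At Mcl1 the RefSeq promoter, 250 bp before to 50 bp after a start, is chr3:95658471-95658770. Its start thus lies upstream of the GENCODE start, and the end of the Mcl1 stretch is transcribed in RefSeq. Gene starts and positions given here are those of GENCODE. The capitals mark exact copies of CCGGAAG or CGGAAG, and at every other core GGAA alone, also where more letters of the motif match around it. A core on the opposite strand appears as its reverse complement, for example CTTCCGG at Bcl2l11. The first is the upstream 218 bp of the Mcl1 peak, chr3:95658570-95658787 on the plus strand, and it ends at the base before the gene start. The next is the upstream 186 bp of the Bid peak, chr6:120916854-120917039 on the minus strand, which also ends at the base before the start. The next lies in an intron of Bcl2, chr1:106549129-106549313 on the minus strand, the whole of the 1 peak inside that gene. The last is the 250 bp upstream of Bcl2l11, chr2:128125788-128126037 on the plus strand, which holds a full motif in capitals and had no peak.
Mcl1 upstream: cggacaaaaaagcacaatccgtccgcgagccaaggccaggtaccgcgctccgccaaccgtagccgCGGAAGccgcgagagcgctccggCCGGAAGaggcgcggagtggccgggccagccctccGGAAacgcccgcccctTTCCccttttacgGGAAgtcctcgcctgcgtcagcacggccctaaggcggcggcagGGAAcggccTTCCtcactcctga
Bid upstream: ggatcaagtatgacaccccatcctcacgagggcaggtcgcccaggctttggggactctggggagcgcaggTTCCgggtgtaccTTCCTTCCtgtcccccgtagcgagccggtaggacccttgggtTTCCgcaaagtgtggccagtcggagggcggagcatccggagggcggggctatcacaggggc
Bcl2 intron: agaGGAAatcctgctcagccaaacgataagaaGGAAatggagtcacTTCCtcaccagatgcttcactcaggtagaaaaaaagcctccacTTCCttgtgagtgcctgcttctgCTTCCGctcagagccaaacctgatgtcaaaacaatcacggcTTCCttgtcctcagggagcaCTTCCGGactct
Bcl2l11 upstream: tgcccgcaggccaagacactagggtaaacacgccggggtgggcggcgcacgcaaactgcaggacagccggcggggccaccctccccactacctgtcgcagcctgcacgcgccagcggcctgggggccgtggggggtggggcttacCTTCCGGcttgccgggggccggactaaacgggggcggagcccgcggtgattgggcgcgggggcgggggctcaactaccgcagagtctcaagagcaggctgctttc
Most of the Bcl2l1 peak lies in a transcribed exon, so only its motif site is printed, 28 bases of chr2:152831677-152831704 on the minus strand with the motif in capitals.
Bcl2l1 site: tgccgcggcaCCGGAAGtggctgcgctt

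Mcl1, which encodes a short-lived protector that T cells need throughout their life, had the widest of the 3 start peaks. It ran over 285 bp, from 218 bp upstream of the gene start to 66 bp downstream, at the gene chr3:95658788-95663176. The deposited list gives no height or score, so width is the only size of a peak that it holds. The Mcl1 peak was wider than 89.1% of all 6782 peaks and than 81.3% of the 3459 peaks at starts of protein-coding genes, whose median width was 210 bp (quartiles 159 and 267 bp). It held 10 GGAA cores, of which 1 was a full CCGGAAG and 2 more were CGGAAG. The full motif lay on the coding strand with its core 128 bp upstream of the start and 50.5 bp from the midpoint of the peak. The core closest to the midpoint, at 1.5 bp, was a bare GGAA that shared only 4 letters with the motif. The 3 sites with at least CGGAAG follow with the matching letters in capitals, the first 2 on the coding strand and the last on the opposite strand. Each is labelled by the position of its GGAA core, counted from 0 at the first base of the gene.
Mcl1 site at -152: aaccgtagccgCGGAAGccgcgagagcg
Mcl1 site at -128: agcgctccggCCGGAAGaggcgcggagt
Mcl1 site at +1: ccggaggcaggCGGAAGtcaggagtgag

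Bcl2l1, the gene of Bcl-xL, had a peak of 203 bp that began 41 bp upstream of the gene start and ended 161 bp inside the gene (chr2:152780668-152831728, minus strand). Its midpoint lay 60 bp downstream of the start. At Mcl1 the midpoint lay 76 bp upstream of the GENCODE start but closer to the RefSeq start. Of the bases of the Bcl2l1 peak, 126 were in untranslated exon, 36 in intron and 41 outside the gene. The width was near the middle of the peaks at protein-coding starts, with 45.6% of them narrower. This peak held 4 GGAA cores and 1 of them was the full CCGGAAG printed above, 22.5 bp from the midpoint. Across the 1979 peaks at protein-coding starts that held CCGGAAG, the median distance of the motif to the midpoint was 17.5 bp, and in 85.2% it was within 50 bp. The full motif at Mcl1, with its core 50.5 bp from the midpoint, was just outside that limit. Bcl2l1 has 9 annotated transcripts with different starts, and the peak covered 2 of them. An alternative promoter about 1 kb downstream, listed in RefSeq at chr2:152830668-152830967, holds 1 CGGAAG and overlapped no peak. Outside that promoter and the peak, a CGGAAG lies 305 bp and a full CCGGAAG about 1296 bp downstream of the gene start.

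Bid, the BH3-only protein that links death receptors to the mitochondrion, was the only death gene with a start peak. The interval was 216 bp wide, ran from 186 bp upstream to 29 bp downstream of the start of the gene (chr6:120891930-120916853, minus strand), and was wider than 52.6% of the peaks at protein-coding starts. It held neither CCGGAAG nor CGGAAG. Its 5 GGAA cores shared at most 6 of the 7 letters of the motif, and the GGAA nearest to the midpoint lay 19 bp from it. Among peaks at protein-coding starts, 57.2% held CCGGAAG, 76.6% CGGAAG and 98.8% GGAA. Among the 1439 such peaks of 200 to under 300 bp, the width class of Bid and Mcl1, 204 (14.2%) lacked CGGAAG, so a peak like that of Bid was in the minority but not rare. The cores that came closest to the motif or to the midpoint follow with GGAA in capitals, all on the strand opposite to the gene.
Bid site at -116: gaaggtacacccGGAAcctgcgctcccc
Bid site at -99: ctacgggggacaGGAAggaaggtacacc
Bid site at -61: gccacactttgcGGAAacccaagggtcc

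The Bid interval also differed from the other start peaks in the uniqueness of its sequence. Of its 181 stretches of 36 bases, the read length, 123 (68.0%) occur only once in the genome, against 100% at Bcl2l1 and at Mcl1. The 58 repeated stretches lie from 186 to 94 bp upstream of the start, and the same 93 bases are found on the X chromosome at chrX:123612674-123612766. No annotated gene and no peak overlaps that copy, and the nearest peak to it is 98173 bp away. The remaining unique part of the interval includes the gene start and its 2 GGAA cores at 61 bp upstream and 21 bp downstream. How the authors treated reads that match several places is not given in the sources used here, and its part in the Bid peak was not tested.

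**Figure D1:**
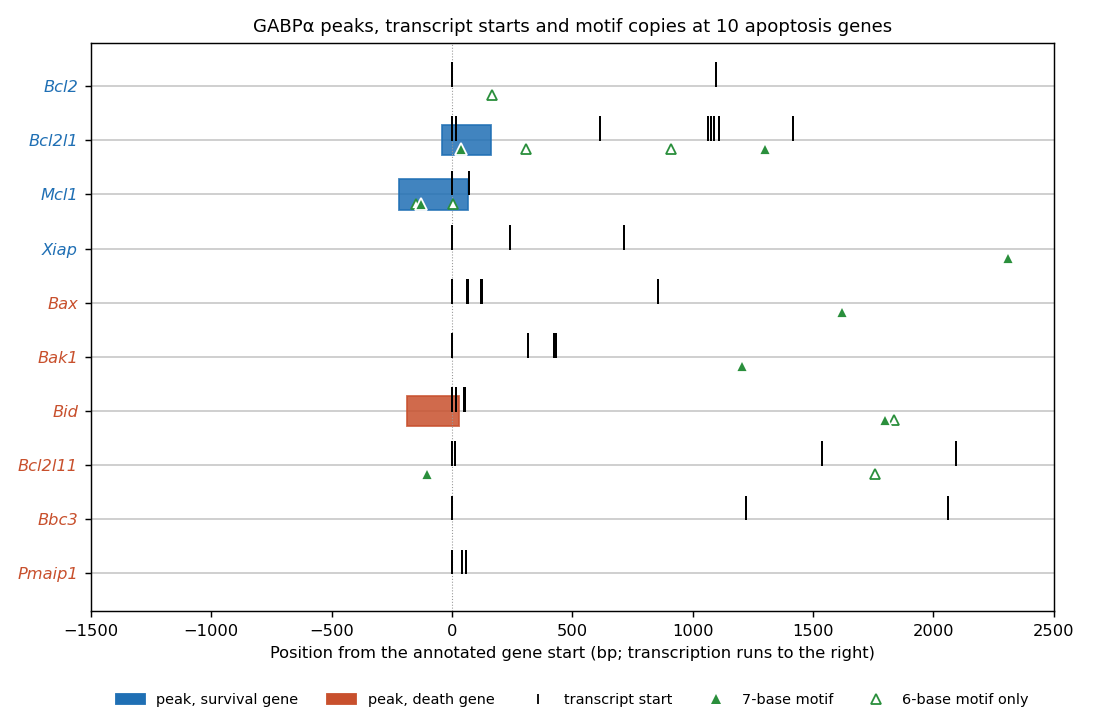
Position of peaks (bars), annotated transcript starts (black ticks) and motif copies (triangles, filled for CCGGAAG and open for CGGAAG alone) in bp from the gene start of each gene, drawn from -1500 to 2500 bp with transcription to the right. The peaks at Bcl2l1, Mcl1 and Bid cover position 0, the Bid peak holds no triangle, and Bcl2l11 has a filled triangle 105 bp upstream with no peak.

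Against the whole genome the count was unremarkable. A start peak was found at 3880 of 21938 protein-coding genes, or 17.7% (Wilson 95% interval 17.2 to 18.2), and at 3 of the 10 genes, or 30% (10.8 to 60.3). These intervals cover the counting of genes only, not the error of the ChIP. The survival genes had 2 of 4 (50%, 15 to 85.0) and the death genes 1 of 6 (16.7%, 3.01 to 56.4). The difference was 33.3 percentage points (Newcombe interval -19.6 to 70.9). With only 4 and 6 genes, which are not replicates of a condition, it cannot show whether survival and death genes differ. Of the 3880 genes with a start peak, 3632 had a CpG-rich window at a transcript start, not necessarily the start with the peak. Of the 12392 protein-coding genes with such a window, 29.3% had a peak. A CpG-rich window was a GC content of at least 50% with an observed to expected CpG ratio of at least 0.6 over 500 bp. Of the 10 genes, 8 had such a start and 3 of those 8 had a peak, which is near that background. Xiap and Bak1 had no such start and no peak.

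Genes were also split by a motif close to a start. Among protein-coding genes with CCGGAAG within 250 bp of a transcript start 51.9% had a peak, and among those without it 8.42% had one. Of the 10 genes 5 had the motif there, namely Bcl2l1, Mcl1, Bid, Xiap and Bcl2l11, and 3 of these had a peak, while none of the other 5 had one. At Bid the motif was not in the peak but near an internal start, 19285 bp into the gene. The motif therefore lay under the peak only at Bcl2l1 and Mcl1. In RefSeq promoters of 300 bp, 250 bp before to 50 bp after a start, 8.86% of 32851 hold CCGGAAG, 16.9% CGGAAG and 96.0% GGAA.

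Xiap and Bcl2l11 had the full motif close to a start and no peak at any start. Bcl2l1, besides the motif in its peak, held a CCGGAAG outside it, with its CGGAAG part 1296 to 1301 bp inside the gene. That copy is near an annotated start at 1418 bp. At Bcl2l11, the gene of Bim, the motif sits on the opposite strand in GC-rich sequence (68.9% GC). Its CGGAAG part lies 105 to 100 bp upstream of the start, a position like that at Mcl1 from the GENCODE start. All 36-base stretches within 1000 bp of the Bcl2l11 start are unique in the genome. At Xiap the motif sits 60 bp from an internal start, 8297 bp into the gene, between 2 RefSeq promoters, and 2 CGGAAG copies follow further in. The annotated gene start of Xiap is that of a noncoding processed transcript, and no RefSeq promoter was listed there. The first RefSeq promoter of Xiap is at the protein-coding start 8157 bp into the gene, which was 63827 bp from the nearest peak. Bcl2 has a CGGAAG 166 bp inside the gene and Bbc3 one 5085 bp inside, each within 250 bp of an annotated start, and neither had a peak there. The sites are shown with the matching letters in capitals because each pairs a motif near a start with no peak. Of the sites shown, all lie on the strand opposite to the gene except that of Bcl2. Among those not shown, the 2 CGGAAG copies at Xiap lie on the opposite strand. A CGGAAG of Bcl2l11, 1756 bp inside the gene and 221 bp from an annotated start, lies on the strand of the gene.
Bcl2l11, chr2:128125923-128125948: cccggcaagCCGGAAGgtaagcccca
Xiap, chrX:42067966-42067991: ctcccagagCCGGAAGgggacatcga
Bcl2, chr1:106714093-106714118: tggggtgcagCGGAAGaggggaccag
Bbc3, chr7:16313468-16313493: aggggtcttaCGGAAGtggctctggg

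A missing interval means only that no stretch passed the q value cutoff of 0.01 that the authors set for peak calling, and the depth of the library is unknown. Binding in few cells and weak binding in all cells cannot be told apart in such a bulk sample. The part of sequence uniqueness in the missing intervals was not tested. Within 1000 bp of the gene start 100% of the 36-base stretches were unique at Bax, Bak1, Bcl2l11 and Pmaip1, 98.7% at Bcl2, 98.2% at Bcl2l1, 94.6% at Mcl1, 92.5% at Xiap and 80.2% at Bbc3. At Xiap and Bbc3 these windows do not reach the printed motif sites, which lie further inside the gene. The peak at Bid appeared in the least unique of the 10 windows, at 76.7%.

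Bcl2, the founding protector of the family, was the only one of the 7 genes without a start peak that had a peak elsewhere in its body. This interval of 185 bp lies 164961 bp downstream of the gene start, in the 167 kb intron, and no annotated exon or transcript start lies in it or, for starts, within 1000 bp of it. It was wider than 89.2% of the 3106 peaks that lie over 1000 bp from every transcript start, whose median width was 123 bp. It held 7 GGAA cores, a CGGAAG 22.5 bp from its midpoint and a full CCGGAAG near its end, 84 bp from the midpoint. Only 3.90% of the 3106 peaks away from starts held CCGGAAG, and 83.5% of those peaks were mostly soft-masked repeat sequence. Among the 514 that were not, 21% held it and the median width was 149 bp. The Bcl2 interval belonged to the latter, with 11.4% of its bases soft-masked and all of its 150 stretches of 36 bases unique. A peak in the gene body was found in 4.26% of all 18058 protein-coding genes without a start peak, and in 14.3% of the 1673 such genes of 100 to 300 kb, the size class of Bcl2.

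For the 7 genes without a start peak the distance from the gene start to the nearest interval ranged from 21485 to 393012 bp. In the 18058 protein-coding genes without a start peak the median was 102655 bp (quartiles 40198 and 228702 bp). Inside the window of 1000 bp the 3 genes with peaks lay at 0 bp, and the closest gene outside it was Bbc3. There was thus no gene near the limit of the window.

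Bbc3, the gene of Puma, was 21485 bp from a 249-bp interval with CCGGAAG, but that interval lies at the start of Ccdc9. Bax, a pore former, was 32446 bp from a 246-bp interval shared by the starts of Gys1 and Ruvbl2. Bak1, the other pore former, was 55658 bp from a 388-bp interval with CCGGAAG at the starts of Ggnbp1 and Zbtb9. The nearest interval to the start of Bcl2 lay 82261 bp upstream, at Vps4b. In all 4 cases the nearest interval was therefore the start peak of another gene. Xiap was 55670 bp, Pmaip1 306843 bp and Bcl2l11 393012 bp from the nearest interval, and these intervals, of 123, 104 and 189 bp, were of another kind. They lie at no gene start, are soft-masked over 100% of their bases, hold no CGGAAG, and contain no 36-base stretch that is unique in the genome. The distances of Pmaip1 (Noxa) and Bcl2l11 (Bim) were longer than those of 82.6% and 88.0% of the genes without a start peak.

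**Figure D2:**
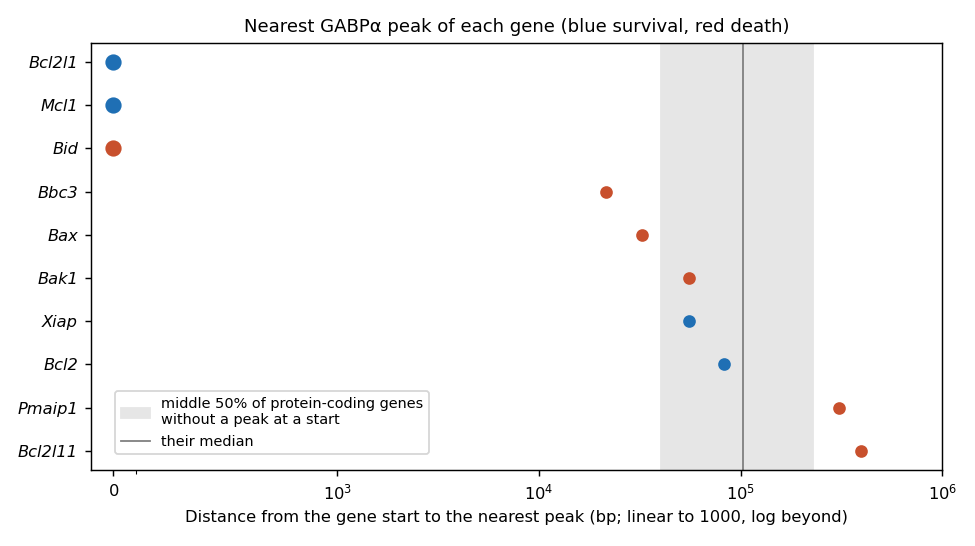
Distance in bp from the start of each gene to the nearest edge of a peak, on an axis that is linear up to 1000 bp and logarithmic beyond, with survival genes in blue and death genes in red. Bcl2l1, Mcl1 and Bid lie at 0, Bbc3 and Bax below the grey band of the middle 50% of protein-coding genes without a start peak (40198 to 228702 bp), Bak1, Xiap and Bcl2 within it, and Pmaip1 and Bcl2l11 above it.

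The neighbourhood gave little more. Within 50000 bp of the gene bodies, Bax had 2 intervals (those at Gys1 and Ruvbl2 and at Nucb1), and Bcl2l1 had 1 besides its own, a 264-bp peak at the start of Tpx2, 16082 bp from the Bcl2l1 start. Bbc3 and Bak1 had 1 each, those named above, and Bcl2, Mcl1 and Bid had only the interval in or at the gene. Xiap, Bcl2l11 and Pmaip1 had none. Among all protein-coding genes 51.0% had none and the mean was 0.815.

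The wider apoptosis machinery was set beside the 10 genes as 42 further genes in 8 lists. Of these 9 (21.4%, 11.7 to 35.9) had a start peak. None of the 5 other anti-apoptotic Bcl2 proteins (Bcl2l2, Bcl2l10 and 3 Bcl2a1 genes) and none of the 5 other pro-apoptotic ones (Bok, Bad, Bmf, Bik and Hrk) had one. With the members added, 2 of 8 anti-apoptotic Bcl2 proteins (25%, 7.15 to 59.1) and 1 of 11 pro-apoptotic ones (9.09%, 1.62 to 37.7) had a start peak, both intervals including the 17.7% of all protein-coding genes.

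Of the 6 remaining lists, only that of the outer membrane channels (Vdac1, Vdac2 and Vdac3) had no gene with a start peak. Among Bcl2-related and Bnip proteins 3 of 8 had a start peak, of 121 bp at Bcl2l13, 188 bp at Bnip2 and 104 bp at Bnip3l, and both Bnip genes are named for the binding of their products to Bcl2. Of the inhibitors of apoptosis other than Xiap only Birc6, which encodes a giant ubiquitin ligase, had one (1 of 4, 282 bp). Diablo and Htra2, whose products leave the mitochondrion and relieve the block by inhibitors of apoptosis, had peaks of 207 and 153 bp (2 of 6 apoptosome and released factors, with none at Apaf1 or Cycs). Of the 5 caspases listed, only Casp2 had a start peak (128 bp). In the death receptor pathway Tradd (115 bp) and Ripk1 (241 bp), adaptor and kinase of the TNF receptor complex, had peaks (2 of 6), and Fas, Fadd and Cflar had none.

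Of the 9 peaks in these lists 5 held CCGGAAG, namely those of Bcl2l13, Birc6, Diablo, Htra2 and Ripk1. That of Bnip2 held CGGAAG, and those of Bnip3l, Casp2 and Tradd held neither. The last 3 were also among the 4 narrowest, at 104 to 128 bp, whereas the Bid peak, which held neither form either, was 216 bp wide. At 5 of the 9 genes the same interval lay within 1000 bp of a start of another gene (Gm28731 at Bnip2, AC154442.1 at Birc6, Aup1 at Htra2, Fbxl8 at Tradd and Serpinb6a at Ripk1), so the list cannot assign it to either. No other gene start lay within 1000 bp of the peaks at Bcl2l1, Mcl1 or Bid.

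**Figure D3:**
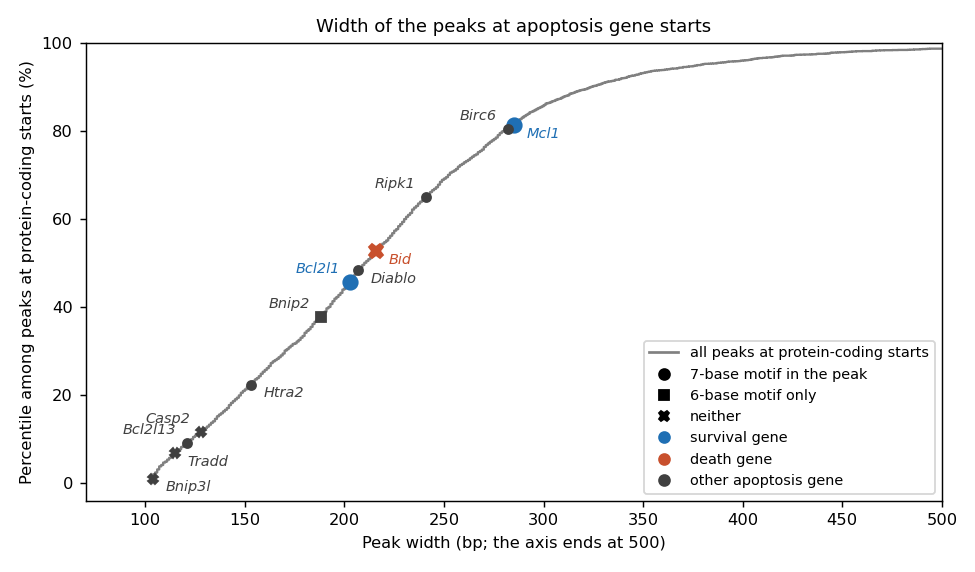
Width in bp of the peaks at apoptosis gene starts against their percentile among the 3459 peaks at protein-coding starts (grey line), with circles for peaks that hold CCGGAAG, squares for CGGAAG alone and crosses for neither. Mcl1 (285 bp) and Birc6 (282 bp) lie highest, Bid (216 bp) and Bcl2l1 (203 bp) near the middle, and the other 3 crosses lie at or below 128 bp.

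**Figure D4:**
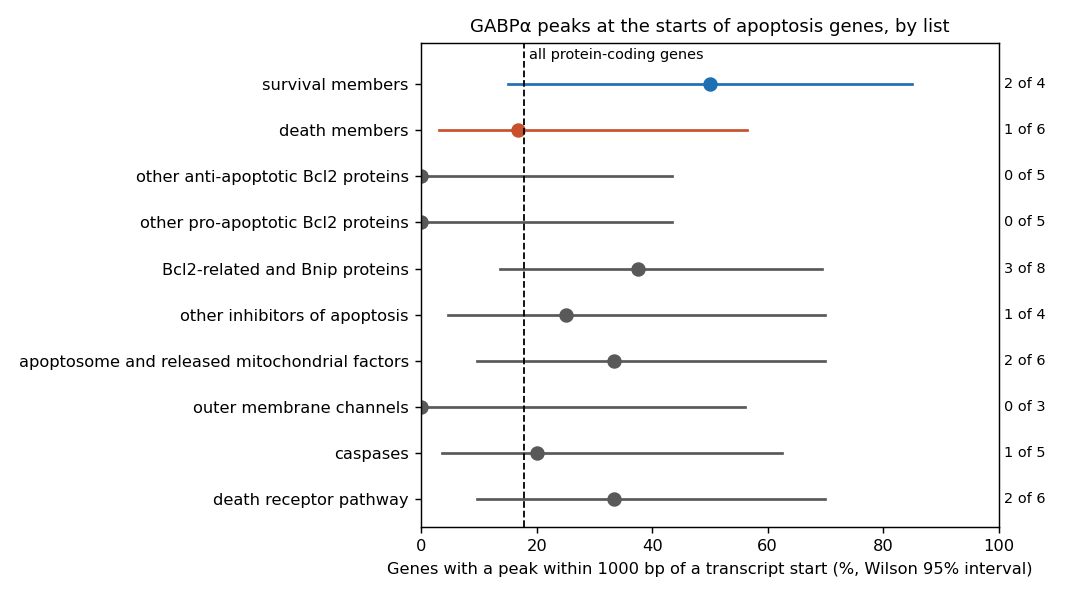
Percentage of genes in each list that had a start peak, with Wilson 95% intervals over genes (bars) and the share of all protein-coding genes, 17.7%, as a dashed line. The interval of every list crosses the dashed line, that of the survival genes from 15 to 85.0 and that of the death genes from 3.01 to 56.4.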

How the data were processed

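The data are GABPα peak intervals from wild-type CD4+ T cells. Per the paper's methods and the labels, the authors trimmed 36-bp reads with Trimmomatic (quality 20, at least 30 bases kept), aligned them to mm10 with Bowtie and called peaks with MACS2 against input at a q-value cutoff of 0.01. Versions are not given in the sources used here. The deposited list gives the position of each peak only. Its score column is blank, and read depth and peak height are therefore unknown. The 10 genes and the further lists were chosen with earlier results of these data known. A result for 1 gene of the wider pathway is not reported here.

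List starts were taken as 0-based, and printed coordinates count from 1. Intervals were set on GENCODE M21 starts, with any overlap of the 1000-bp window. Positions count from 0 at the first base of the gene. Distances are from the gene start to the nearest edge. Motifs were exact matches on both strands in GRCm38.p6. Uniqueness is the share of 36-base sequences that occur once in the genome on either strand. The genes named are all 10 members and every listed gene with a start peak, with the width of its widest such peak. Neighbouring genes, listed genes without a start peak, the Bcl2 intron peak and the backgrounds by CpG-rich start, by motif and by gene length were added after the values were seen. Scripts were tested on simulated data (Python 3.11.15, numpy 2.4.6, pandas 2.3.3, scipy 1.17.1, pysam 0.24.0, numba 0.67.0, matplotlib 3.10.9). Promoter windows are from RefSeq. With 1 library of each kind, no test was run. Alternatives covered the window, the transcripts, the peaks kept, the overlap, the motif and the background.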

Additional observations from a re-analysis of the deposited data

How the results depend on the processing

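Of 55 alternative values, 52 stayed within the limits set, 3 moved and none reversed. Many of them count the same 3 peaks again, so they are not independent checks. The 3 genes with a start peak, 2 survival genes and 1 death gene, were counted under windows of 500, 2000 and 5000 bp, the gene start alone, protein-coding transcripts alone, peaks of median width or more, peaks under 50% soft-masked, and the peak midpoint in place of any overlap. The limits were wide. Without Xiap the difference between survival and death genes was 50 points in place of 33.3, a change that was counted as within the limits. So was a share of protein-coding genes of 14% in place of 17.7% when only peaks of median width or more were kept. With only the wider of the peaks kept (median width or more), the other lists held 4 genes in place of 9, losing Bcl2l13, Bnip3l, Casp2, Htra2 and Tradd. The share of protein-coding genes with a start peak, 17.7%, was 30.9% where the gene start was CpG-rich and 8.45% over all annotated genes, so the background depends on which genes are counted. No paired analysis was possible because there was 1 ChIP library and 1 input library. No replicate could be left out, and a peak just under the authors' cutoff cannot be seen.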
